A study of Canis lupus familiaris with 32 samples.

Results

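The levels of 2 dog genes, ENSCAFG00000014924 and ENSCAFG00000013931, were followed through 32 RNA sequencing libraries of hip soft tissue. They were taken by their Ensembl identifiers out of 24580 genes listed, and were selected on measured values, for levels far lower in ligaments of neonatal dogs than in ligaments of adult control dogs. The reference table used for names matched 0 of the listed identifiers to a symbol, so neither gene is named here, no function is assigned to either, and no sequence is printed. For the same reason the labelled tissues could not be checked against defining marker genes.

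The series studied dysplasia of the hip in dogs, in which a loose joint lets the femoral head move in its socket during growth. Fibrous capsule encloses the joint. Within it the teres ligament, a collagen-rich cord, ties the femoral head to the acetabulum. Fibroblasts of such tissues lay down and remodel a dense collagen matrix through postnatal growth, and the cell density of ligament falls as the matrix matures.

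The libraries came from 25 dogs and fall into 7 groups. Control tissue was from adults only, with 5 capsules and 3 ligaments. Young tissue was from dogs under 1 month of age, with 6 capsules and 4 ligaments. Affected capsules came from 1 adult and 3 dogs aged 4 months, and affected ligaments from 4 adults and the same 3 dogs aged 4 months. The remaining 3 libraries were of embryonic hip, which is not split into capsule and ligament. Replicates of a group were different dogs, and 7 dogs gave both tissues. Library totals ran from 2857235 to 9895143 fragments. Levels are given as CPM, the fragments of a gene scaled to a common library size, on a common TMM scale over all libraries, and levels of different genes are compared only as deposited FPKM, which is per length. In whole tissue, fewer cells of a type and less RNA per cell cannot be told apart.

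ENSCAFG00000014924 was one of the more abundant transcripts of adult control tissue and was at the edge of detection in embryonic hip. In control ligaments it stood at 949, 2199 and 1011 CPM, and in young ligaments at 6.28, 34.2, 6.44 and 3.4 CPM. Every control ligament was above every young one, as the choice of the gene required. By FPKM it ranked between 40 and 129 of all genes in control ligaments and between 5057 and 12014 in young ligaments.

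ENSCAFG00000013931 followed the same contrast at a much lower level. Control ligaments held 4.46, 16.1 and 4.77 CPM, from 22, 100 and 24 fragments. Young ligaments held 0, 0.236, 0 and 0.2 CPM, which is 3 fragments over 4 libraries. A library with 0 fragments allows a level of up to 0.496 and 0.509 CPM in these 2 cases, counting error alone. The contrast between young and control ligaments, which chose both genes, had log2 fold changes of -6.76 and -5.96. Both are among the 602 genes called lower there, 4.74% of the genes tested, from which nothing is read, since the choice fixed it. Leaving out young replicate 2 gave -8.01 and -6.71, and leaving out control replicate 2 gave -5.09 for ENSCAFG00000013931.

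**Figure D1:**
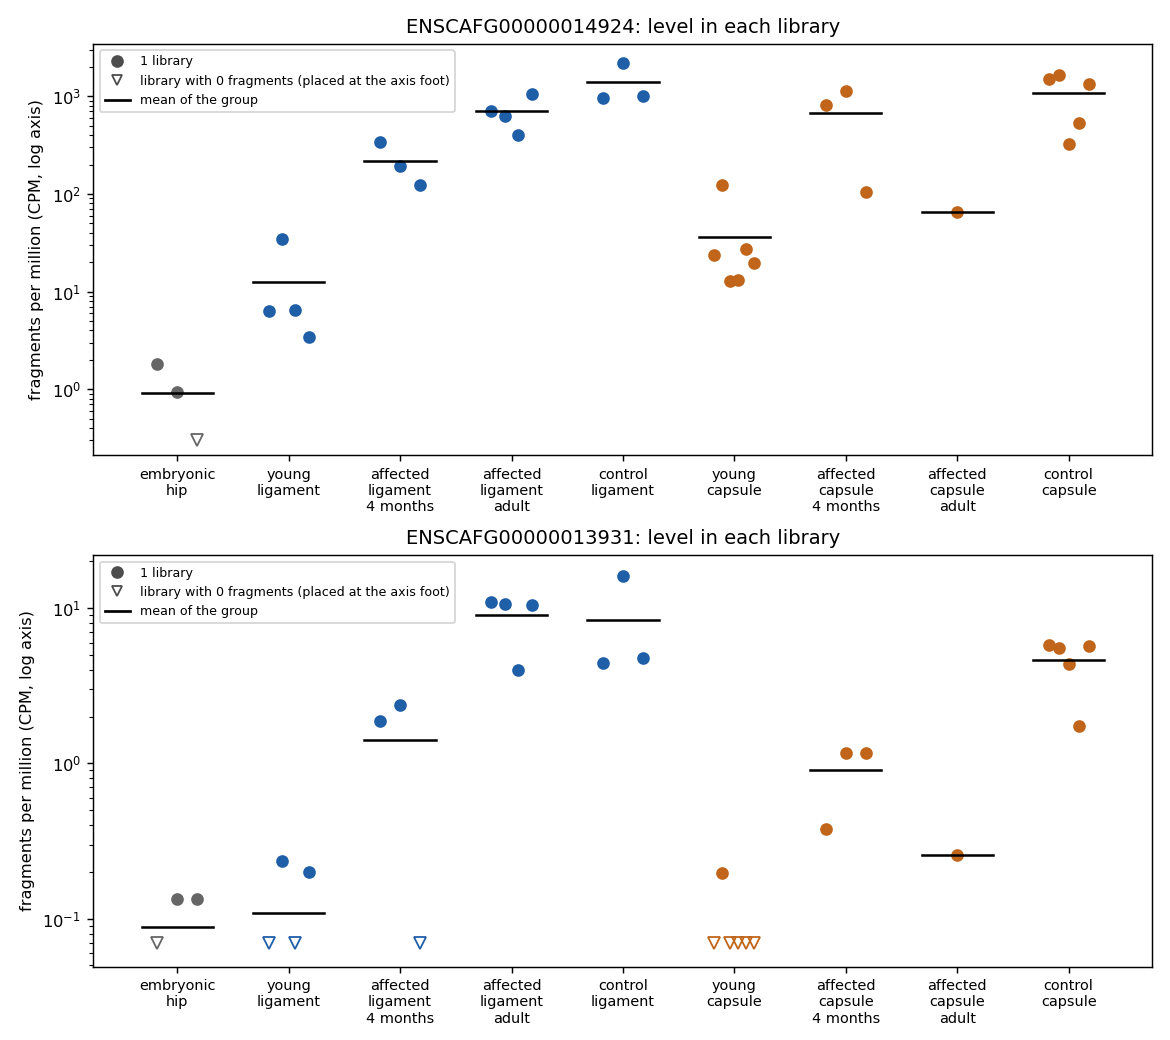
Level of each gene in CPM (log axis) in every library, by group and age. Each dot is 1 library, open triangles are libraries with 0 fragments and black lines are group means, and in both panels the young and embryonic libraries lie at the bottom and the adult control libraries near the top.

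The capsule libraries took no part in that choice and asked whether the age difference was also present in the other tissue. For ENSCAFG00000014924, control capsules stood at 1505, 1671, 323, 527 and 1341 CPM. Young capsules ran from 12.7 to 122 CPM with a median of 21.4 CPM, and no young capsule reached the lowest control. The gene was 29.8-fold lower in young capsules (log2 fold change -4.9, SE 0.77, 95% interval -6.6 to -3.19, edgeR adjusted p = 0.00079). In that fit 19.6% of genes were called lower in young capsules, and 7 of 12589 genes had a more negative fold change. Without young replicate 2 the log2 fold change was -5.82 (adjusted p = 8.7e-06). Because 3 young dogs and 1 control dog also gave a ligament that entered the choice, the fit was repeated without their capsules, and it gave -6.14 (SE 0.53, adjusted p = 5e-05).

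ENSCAFG00000013931 had 18, 28, 22, 7 and 29 fragments in control capsules, or 5.81, 5.51, 4.38, 1.73 and 5.72 CPM. In young capsules it had 1 fragment in young replicate 2 and 0 in the other 5 libraries, which allow up to 0.5 to 0.778 CPM each. All 5 control capsules were above all 6 young ones. The pooled ratio of control to young capsules was 139 (95% counting interval 24.4 to 5550). Without young replicate 2 the young capsules held 0 fragments, and the 95% counting interval of the ratio began at 30.7. With the young group set to its floor of 3 fragments in all, that ratio was 38.5. Its low counts kept it out of the main fit and of most others. Of the 11 fits with 1 library left out, 1 tested it. That fit left out control replicate 4, its lowest control at 1.73 CPM. There, and without the dogs that gave both tissues, it passed the count filter through the control capsules alone, so those calls are not read. Filtered limma on log2(FPKM + 0.1) and log2(FPKM + 1) (log2 -4.7 and -1.96) also kept it through the control capsules and is not read. With no filter it was called (edgeR adjusted p = 1.6e-06), where 13.4% of 18560 genes were called lower in young capsules. Without the dogs that gave both tissues it had 82 fragments against 0. The 95% counting interval of that ratio began at 16.4, and the ratio against the same floor was 20.7.

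Affected ligaments offered a second age comparison in libraries and dogs apart from the choice. At 4 months ENSCAFG00000014924 stood at 343, 191 and 123 CPM, and in affected adults at 715, 622, 400 and 1062 CPM. The age classes did not overlap. The gene was 3.24-fold lower at 4 months (log2 -1.69, SE 0.4, 95% interval -2.58 to -0.81, edgeR adjusted p = 0.022), where 8.35% of genes were called lower. The call was lost without replicates 2, 6 or 7 (adjusted p = 0.052, 0.086 and 0.066), with log2 fold changes of -1.75, -1.61 and -1.42.

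ENSCAFG00000013931 had 8, 10 and 0 fragments at 4 months (1.87, 2.37 and 0 CPM) and 56, 32, 16 and 64 fragments in affected adults (11, 10.6, 4.01 and 10.5 CPM). Again every adult ligament was above every ligament of the dogs aged 4 months. It was 6.69-fold lower at 4 months (log2 -2.74, SE 0.73, 95% interval -4.36 to -1.12, edgeR adjusted p = 0.034), in the fit where 8.35% of genes were called lower. It passed the count filter through its adult libraries, so its place among all fold changes is not read. With no filter the log2 fold change was -2.76 (edgeR adjusted p = 0.036). Without replicate 1, 2, 5 or 6 the call was lost (adjusted p = 0.072, 0.078, 0.065 and 0.062). The log2 fold change was -3.38 without replicate 6 and -2.11 without replicate 7, the library with 0 fragments. All 3 dogs aged 4 months have dog identifiers with the same first characters, which none of these affected adults has. What the characters stand for is not given, and they cannot be told apart from age.

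**Figure D2:**
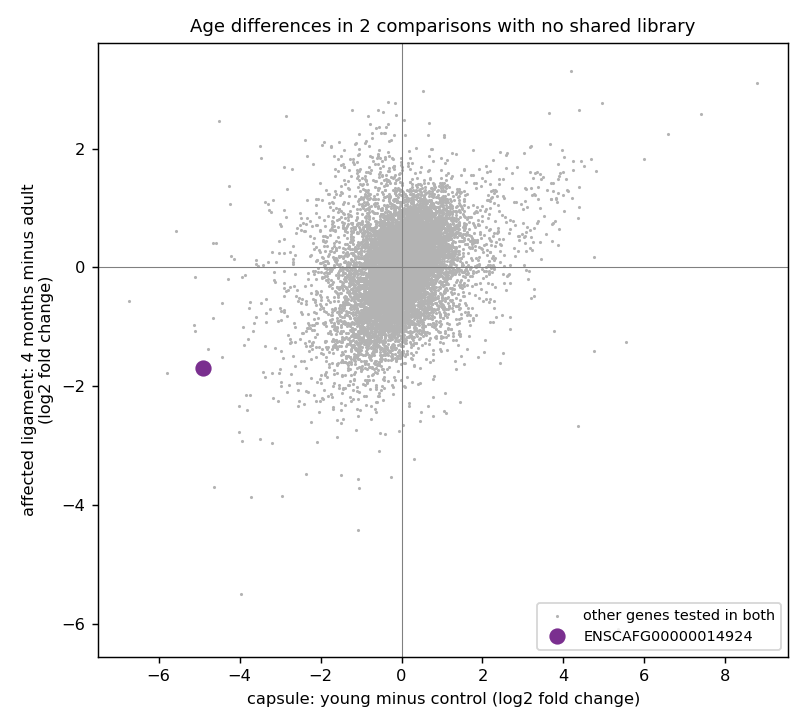
Log2 fold changes of all genes tested in both age comparisons, young minus control capsules on the x axis and 4 months minus adult affected ligaments on the y axis. ENSCAFG00000014924, the large dot, lies at -4.9 and -1.69, in the lower left where both young groups are lower.

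These age comparisons share no library. Of 12152 genes tested in both, 572 (4.71%) were called lower in both, ENSCAFG00000014924 among them. Just 1 other gene had fold changes at least as negative in both. ENSCAFG00000013931 is not in this count, as it was filtered from the capsule fit.

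Embryonic hip extended the series before birth, although whole hip and capsule differ in tissue as well as in age. ENSCAFG00000014924 had 12, 7 and 0 fragments in the embryonic libraries (1.83, 0.93 and 0 CPM), below the lowest young capsule at 12.7 CPM. It was 41.6-fold lower in embryonic hip than in young capsules (log2 -5.38, SE 1.26, 95% interval -8.29 to -2.47, edgeR adjusted p = 0.0095), where 22.9% of genes were called lower. The log2 fold change was -4.45 without young replicate 2, -6.27 without embryo replicate 1 and -4.78 without embryo replicate 3. This comparison shares the young capsules with the one above. ENSCAFG00000013931 had 0, 1 and 1 fragments in embryonic hip, so both sides were at or under the floor and no fold is given.

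Dysplastic and control hips were compared with a test in capsule only. ENSCAFG00000013931 had 1, 2, 6 and 5 fragments in affected capsules, or 0.256, 0.378, 1.16 and 1.17 CPM, all below the lowest control at 1.73 CPM. Its log2 fold change was -2.57 (SE 0.55, 95% interval -3.74 to -1.39), a 5.93-fold lower level that did not pass over all genes (edgeR adjusted p = 0.089). In this fit 0.102% of genes were called lower. DESeq2 called it (log2 -2.62, adjusted p = 0.0029), along with 0.456% of genes lower. In both fits it passed the count filter through the control capsules alone, so the DESeq2 call is not read. With no filter it was not called by edgeR (log2 -2.59, adjusted p = 0.068). Nor was it by limma on log2(FPKM + 0.1) with no filter (log2 -2.5, adjusted p = 0.22). The filtered edgeR fit dropped the gene when control replicate 1, 2, 3 or 5 was left out. With the adult affected capsule left out, the log2 fold change was -2.33 (adjusted p = 0.12), and all controls were adult, so disease and age are not separated for the dogs aged 4 months.

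ENSCAFG00000014924 was spread widely among affected capsules. The adult affected capsule stood at 65.4 CPM and those of the dogs aged 4 months at 808, 1128 and 105 CPM, against 323 to 1671 CPM in controls. The ranges overlapped, and the difference did not pass (log2 -1.01, SE 0.82, 95% interval -2.83 to 0.8, adjusted p = 0.99). The 2 capsules below all controls were the adult one and affected replicate 4. With age class as a covariate, which rests the disease term on the 1 adult capsule, the log2 fold change was -4.01 (SE 1.46, adjusted p = 0.66) for ENSCAFG00000014924 and -4.01 (SE 1.19, adjusted p = 0.42) for ENSCAFG00000013931. These fits share their controls with the age comparison in capsule.

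**Figure D3:**
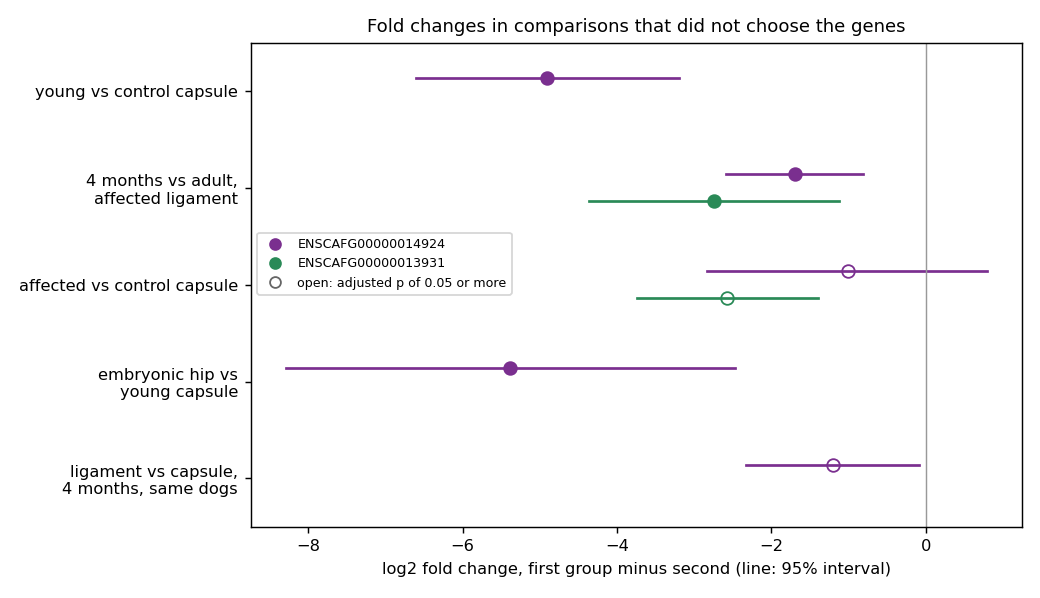
Log2 fold changes (x axis, first group minus second) of both genes in the 5 comparisons that did not choose them, with 95% intervals. Filled dots passed an adjusted p of 0.05 and open dots did not, and a gene filtered from a fit has no dot. All estimates lie below 0, and the interval of ENSCAFG00000014924 in affected against control capsules crosses it.

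In ligament the affected and control groups are given without a test, since the control ligaments chose the genes for being high. For ENSCAFG00000014924, affected adults at 400 to 1062 CPM overlapped the controls at 949 to 2199 CPM, while the 3 ligaments at 4 months lay below every control. For ENSCAFG00000013931, affected adults averaged 9.04 ± 3.36 CPM (SD, n = 4) and controls 8.45 ± 6.65 CPM (n = 3), a difference smaller than either spread. Its 3 ligaments at 4 months were again below every control, at up to 2.37 CPM.

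The 7 dogs that gave both tissues were used to set ligament against capsule. ENSCAFG00000014924 was lower in ligament in all 3 young dogs, at 6.28 against 23.5 CPM, 34.2 against 122 CPM and 3.4 against 19.4 CPM. In the dogs aged 4 months, ligament and capsule stood at 343 and 808 CPM, 191 and 1128 CPM, and 123 and 105 CPM. The single adult control dog had the opposite order, with 949 CPM in ligament and 323 CPM in capsule. Only the dogs aged 4 months are free of libraries that chose the gene. In them the log2 difference of ligament minus capsule was -1.2 (SE 0.5, 95% interval -2.33 to -0.08) and did not pass over all genes (edgeR with dog as block, adjusted p = 0.43). In that fit 1.19% of genes were called lower in ligament. Without the dog of affected ligament replicate 6 it was -0.52, and without that of replicate 7 it was -1.9 (adjusted p = 0.82 and 0.055). ENSCAFG00000013931 had 18 fragments in these ligaments and 13 in these capsules, a pooled ratio of 1.46 (95% counting interval 0.678 to 3.25). The dogs differed in direction, with 8 fragments in ligament against 2 in capsule (ratio 4.94, 0.985 to 47.7), 10 against 6 (2.05, 0.675 to 6.86) and 0 against 5 (up to 0.857), so no common tissue difference was seen.

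**Figure D4:**
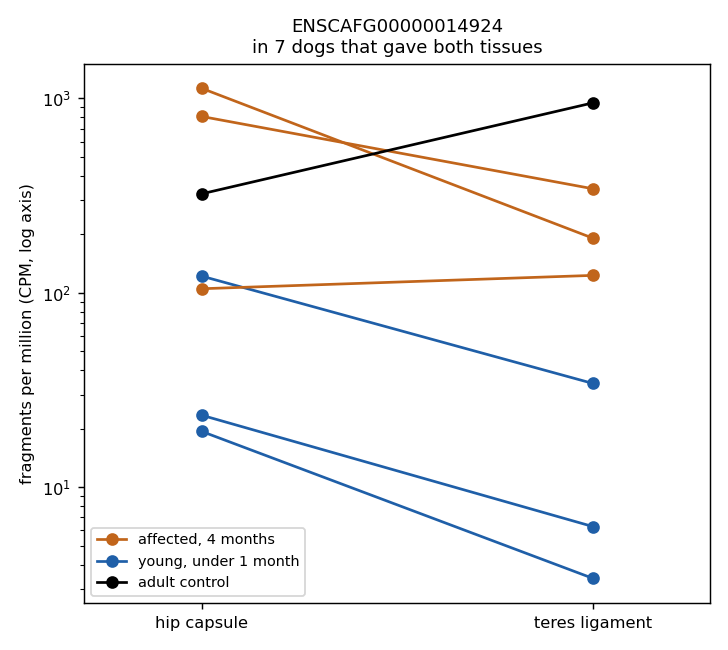
ENSCAFG00000014924 in CPM (log axis) in the capsule and teres ligament of the 7 dogs that gave both, with 1 line per dog coloured by age. The line falls towards ligament in 5 dogs and rises in the adult control dog and in 1 dog aged 4 months.

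In order of mean level, ENSCAFG00000014924 ran from control ligament (1387 CPM) through control capsule (1073), adult affected ligament (700), capsule at 4 months (680), ligament at 4 months (219), the adult affected capsule (65.4), young capsule (36.4) and young ligament (12.6) to embryonic hip (0.92). Neighbours in this order overlapped, except the ligaments at 4 months and the adult affected capsule, and young ligament and embryonic hip. The overlaps of young capsule with the adult affected capsule and with young ligament rest on young replicate 2. Without it, young capsules ran from 12.7 to 27.3 CPM and young ligaments reached 6.44 CPM. ENSCAFG00000013931 ran from adult affected ligament (9.04 CPM) and control ligament (8.45) through control capsule (4.63), ligament at 4 months (1.41), capsule at 4 months (0.902) and the adult affected capsule (0.256) to young ligament (0.109), embryonic hip (0.0887) and young capsule (0.0326). Its 3 lowest groups held 3, 2 and 1 fragments in all, and the adult affected capsule is 1 library with 1 fragment, so none of these can be ordered.

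The dog that gave young replicate 2 of both tissues had the highest young level of ENSCAFG00000014924 in each tissue. ENSCAFG00000013931 had 1 fragment in its capsule and 2 in its ligament, too few to set it apart from the other young libraries. Its capsule held 122 CPM of ENSCAFG00000014924, where the other young capsules reached 27.3 CPM, and its ligament 34.2 CPM, where the others reached 6.44 CPM. The same libraries were often the highest for other genes too. Among the 2471 genes called lower in young than control capsules, its capsule was the highest young library for 38.9%, against 6.43% to 15.9% for each other young capsule. Among the 602 genes called lower in young ligaments, its ligament was the highest for 48.2%, against 13.3% to 23.6%. Its identifier begins like those of the dogs aged 4 months, while its label gives an age under 1 month, which could not be checked here. The young folds are therefore given above with and without it, while the means of the young groups include it. The part of age in its levels was not tested.

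Per length, ENSCAFG00000014924 was the more abundant gene throughout postnatal tissue, and the ratio of their FPKM varied between groups. In control ligaments the mean FPKM were 619 and 5.53, a ratio of 112 (92.8 to 145 over libraries). In adult affected ligaments they were 327 and 6.23, a ratio of 52.6 (39.9 to 68.7), and in control capsules 158 (50.1 to 207). These ratios are descriptions, since the control ligaments chose the genes and ENSCAFG00000013931 had as few as 22 fragments in a control ligament, 16 in an adult affected ligament and 7 in a control capsule. Capsules at 4 months ran from 61.2 to 1452, the latter resting on 2 fragments of ENSCAFG00000013931 in affected replicate 2.

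Across the 32 libraries the log2 CPM of the genes correlated at Pearson r = 0.81, and at 0.76 over the 25 libraries that did not choose them. Among 13965 genes averaging at least 1 CPM, others followed each more closely. The genes most like ENSCAFG00000014924 were ENSCAFG00000011184 (r = 0.95, and 0.96 over the 25 libraries) and ENSCAFG00000001360 (0.94 and 0.96). ENSCAFG00000011184 averaged 1.48 CPM in embryonic hip, 5.65 in young and 22 in control ligaments, and, as with ENSCAFG00000014924, its adult affected capsule at 5.39 CPM was below the control capsules, which averaged 19.7 CPM. The genes most like ENSCAFG00000013931 were ENSCAFG00000017048 (0.93 and 0.93) and ENSCAFG00000008354 (0.9 and 0.88). ENSCAFG00000008354 averaged 61 CPM in embryonic hip, 147 CPM in young ligaments and 1253 CPM in control ligaments. These correlations are descriptions, since libraries of a group share age and tissue, some share a dog, and no test was made.

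**Figure D5:**
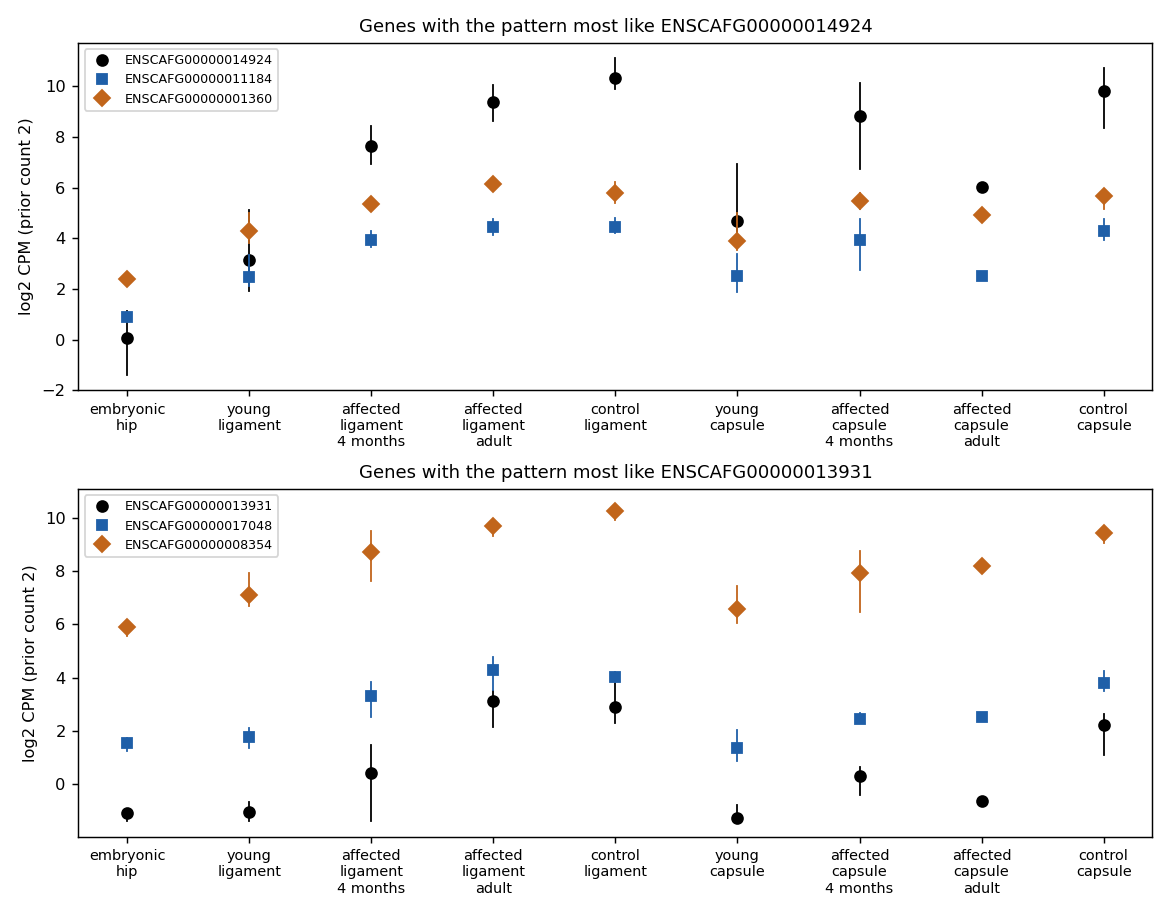
Mean log2 CPM (prior count 2) by group of each gene and of the 2 genes with the highest Pearson r to it over the 32 libraries. Symbols are group means and vertical lines run from the lowest to the highest library, and the like genes span a narrower range than ENSCAFG00000014924 in the upper panel.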

How the data were processed

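Total RNA of hip capsule, teres ligament and embryonic hip was depleted of ribosomal RNA and sequenced as directional libraries, per the labels' protocols. The genome build canFam3 and the tools Cuffdiff 2.2.1, TopHat2 2.0.13, Bowtie2 2.2 and cutadapt 1.8 are named, per the submitters' processing notes. How each tool was set, which annotation was used and whether counting used strand is not stated there, so fragments shared with overlapping, antisense or near-identical genes remain an uncertainty for each gene.

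The authors deposited an estimated count of fragments per gene and library, per the file headers. Of these values 0.332% were more than 1e-06 off a whole number, and all were rounded. The deposited scaled fragment signal was used only for relative gene length, and the deposited FPKM only for levels between genes and for alternative tests. The tables of capsule and ligament alone were not used.

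Each comparison was fitted on all genes of its libraries with edgeR 4.0.16 in R 4.3.3 (filterByExpr, TMM, robust quasi-likelihood F test, Benjamini-Hochberg adjustment, called at an adjusted p under 0.05). Standard errors come from the F statistic, and intervals use the same degrees of freedom. The comparison of tissues within dogs had the dog as block. Alternatives were DESeq2 1.42.0, limma 3.58.1 on log2(FPKM + 0.1) or log2(FPKM + 1), other scalings, no filter, each library left out, and fits with age class or replicate number. The edgeR script was tested on simulated data for every comparison other than the one that chose the genes. Counting intervals are exact binomial (95%), and the floor is 3 fragments. Intervals and floors cover counting error only, as the libraries have no molecular identifiers. Over 64 pairs of libraries of the same group, the lowest chi-square per gene was 4.24, above sampling noise. Like genes were the 2 with the highest Pearson r of log2 CPM (prior count 2). Both genes, the comparisons and the rule for named genes were chosen with earlier results of these data known.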

Additional observations from a re-analysis of the deposited data

Results flagged for a closer look

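Among 10 sets of libraries examined (each gene in each group of 4 to 7 libraries), 3 held a library far from the rest. No rate is set against this count, since the usual 1 in 20 holds for normally distributed values only. The library was young replicate 2 in all 3 sets, from the same dog. In young capsules ENSCAFG00000014924 stood at 122 CPM there, with the next at 27.3 CPM, so that the gap took 0.866 of the range. In young ligaments it stood at 34.2 CPM, with the next at 6.44 CPM, a gap of 0.901 of the range. ENSCAFG00000013931 stood at 0.196 CPM in that capsule and at 0 in the other 5. That gap rests on 1 fragment, and the rule flags any such set, so nothing is read from it. The cause was not tested.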

How the results depend on the processing

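ENSCAFG00000014924 was called lower in young than control capsules and lower in embryonic hip than young capsules under every alternative run (log2 fold changes of -5.82 to -4.7 and -6.27 to -4.45 with 1 library left out), the latter at -3.21 with limma on log2(FPKM + 1). At 4 months against adult affected ligaments its range was -2.19 to -1.42, and that of ENSCAFG00000013931 was -3.38 to -2.11. The latter was also lost with limma on log2(FPKM + 0.1), at -3.28 with and without a filter (adjusted p = 0.068 and 0.081). In affected against control capsules, ENSCAFG00000014924 ranged from -1.72 to -0.65 and ENSCAFG00000013931 from -2.88 to -2.33, none called, and DESeq2 called the latter at -2.62. Most fits of young against control capsules dropped ENSCAFG00000013931. It was called with no filter (-6.28, limma -4.7). It was not read from filtered limma (-4.7 and -1.96), nor without control replicate 4 (-6.51) or dogs that gave both tissues (-7.36). Between the tissues at 4 months it turned from 0.55 to -0.11 with limma at a pseudocount of 0.1 (adjusted p = 0.98 with and without a filter) and was 0.17 at 1, and ENSCAFG00000014924 ranged from -1.9 to -0.52, none called. In the contrast that chose the genes, the ranges were -8.01 to -6.27 and -6.71 to -5.09.

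Of called genes, at 4 months against adult there were 1841, with 1005, 1012 and 791 by limma (pseudocount 0.1, 1, and 0.1 with no filter) and 549 to 2203 with 1 library left out. In affected against control capsules they were 30, with 141 by DESeq2, 47 with no filter, 4, 10 and 4 by limma, 11 with age class and 2 to 41 with 1 library left out. Between tissues they were 159, with 309 by DESeq2, 271 with no filter, 97 by limma with no filter, 368 in all 7 dogs and 131 to 345 with 1 dog left out. In young against control ligaments they were 1310, with 2040 by DESeq2, 814 with the replicate number as a block and 617 to 1774 with 1 library left out. The cause was not tested.

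Same-numbered libraries are different dogs, and their deviations correlated at -0.37 to 0.26. With the replicate number as a block the log2 fold change of ENSCAFG00000014924 was -5.11 in young and -1.59 in affected against control capsules (6 genes called in the latter) and -5.66 in embryonic hip. In young against control ligaments, a block fit added after seeing the data gave -6.84 and -6.41 for the 2 genes. With no block the tissue difference at 4 months was -1.63. No paired analysis was possible for affected ligaments by age because those libraries share no number. Scaling by library totals alone moved the median of all genes to -0.18, 0.34, -0.12, 0.56, 0.34 and -0.24 in the 6 fits, and neither gene changed direction or call. Calls higher and lower went from 2362 and 2471 to 1452 and 3347 (young against control capsules), from 787 and 1054 to 2162 and 524 (4 months against adult), from 17 and 13 to 7 and 21 (affected against control capsules), from 2756 and 3105 to 6614 and 1298 (embryonic hip) and from 708 and 602 to 514 and 1178 (young against control ligaments). Depth limits ENSCAFG00000013931 (at most 100 fragments a library).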
